A study of Mus musculus with 24 samples.

Results

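The 9 genes described here are Nr3c1, which encodes the glucocorticoid receptor, the listed glucocorticoid-responsive genes Fkbp5, Tsc22d3, Per1, Klf9, Zbtb16, Sgk1 and Pdk4, and Angptl4, out of 49315 genes counted. They were taken by name, and Angptl4 was listed because it had been seen to be higher in D2C7-IT tumours than in vehicle tumours at day 0, so it was chosen by its measured level in those 6 tumours. That comparison is therefore given for all 9 genes as a description, with no test. For the same reason Angptl4 has no test in any comparison that shares the vehicle or the D2C7-IT tumours of day 0. All 9 genes passed the filter on low counts, which left 22280 genes, and the lowest raw count of any of them in a library was 61 reads (Angptl4).

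RNA was sequenced from 24 whole, unsorted brain tumours, 3 in each of 8 groups. All mice had received CT-vIII cells in the brain, that is, the mouse glioma line CT-2A transduced with mouse EGFR variant III and firefly luciferase. An osmotic pump then delivered the agents into the tumour for 72 h: D2C7-IT+aCD40, D2C7-IT alone, aCD40 alone, or a vehicle of 2% MSA-PBS with 100 µg of rat IgG2a. D2C7-IT (0.2 µg) is an immunotoxin directed at the EGF receptor and its variant III, and aCD40 (10 to 300 µg, the dose of each tumour not being stated) is an antibody to the immune receptor CD40. Tumours were taken when the pump was removed (day 0) or 3 days later (day 3). The labels name no glucocorticoid given to any group, nor the hour of collection, the strain or the age of the mice. Libraries held 24697576 to 48119840 counted reads. Levels are counts per 1000000 reads after TMM scaling (CPM), in the order of replicates 1, 2 and 3. Tests are edgeR's quasi-likelihood test with Benjamini-Hochberg adjustment over all genes, with DESeq2, another count model, beside it, and a gene is called at an adjusted p under 0.05.

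Glucocorticoids enter the cell and bind the glucocorticoid receptor, which is held ready by heat-shock chaperones and then moves to the nucleus and acts on genes that carry its response element. Among the best known genes it induces in brain, immune and other tissues are feedback inhibitors, clock genes, kinases and transcription factors. Several of them also answer to other signals, Per1 to the circadian clock and to neuronal activity, and Angptl4 and Pdk4 to fatty acids through the PPAR receptors. Angptl4 encodes a secreted protein that inhibits lipoprotein lipase, the enzyme that frees fatty acids from blood lipids.

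Promoter stretches of 3 members are shown, each the 250 bases before an annotated start (RefSeq, GRCm38.p6, plus strand): chr10:21993640-21993889 at Sgk1, because it was the 1 of the members' 14 promoter windows with a full response element; chr11:69098699-69098948 at Per1, because it holds an E-box, the element bound by clock proteins; and chr19:23140976-23141225 at Klf9, whose level moved with that of Per1 and whose window held none of the motifs. Capitals mark motif matches.
Sgk1: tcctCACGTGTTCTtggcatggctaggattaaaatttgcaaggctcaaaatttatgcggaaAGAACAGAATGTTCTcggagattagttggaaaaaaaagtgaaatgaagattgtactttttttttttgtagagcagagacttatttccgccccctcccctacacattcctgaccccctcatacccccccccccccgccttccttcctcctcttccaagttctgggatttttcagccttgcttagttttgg
Per1: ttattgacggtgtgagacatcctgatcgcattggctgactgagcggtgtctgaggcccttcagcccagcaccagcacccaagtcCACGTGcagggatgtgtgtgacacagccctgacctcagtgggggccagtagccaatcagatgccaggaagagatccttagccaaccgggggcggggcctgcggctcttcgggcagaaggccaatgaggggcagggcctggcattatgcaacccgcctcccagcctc
Klf9: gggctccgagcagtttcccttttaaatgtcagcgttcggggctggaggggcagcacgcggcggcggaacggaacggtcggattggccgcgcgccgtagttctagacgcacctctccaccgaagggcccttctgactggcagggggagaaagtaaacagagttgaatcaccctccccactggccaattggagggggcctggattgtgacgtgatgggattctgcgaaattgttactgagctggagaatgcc
The search covered windows of 300 bases (250 before and 50 after the start) on both strands. The full palindromic glucocorticoid response element, the arm AGAACA followed after 3 bases by TGTTCT, was in 3 of 32851 windows of the table (0.00913%), and in Sgk1 it begins 189 bases before the start. The half-site, AGAACA or TGTTCT, was in 19.0% of all windows and in 4 of the members' 14, at Sgk1 and Tsc22d3. Of those 14 windows, 6 are at starts of Sgk1 and 3 at starts of Tsc22d3, so 1 gene can enter a count more than once. The E-box CACGTG was in 7.15% of all windows and in 3 of the members' 14, at Sgk1, Per1 and Fkbp5. In the Sgk1 stretch the E-box overlaps a half-site, and the other half-site matches are the arms of the full element. The PPAR direct repeat, AGGTCA and a further AGGTCA 1 base apart (TGACCT on the other strand), was in 0.0396% of all windows and in 0 of the members' 14. Entries were found for 6 of the 9 genes. Nr3c1, Zbtb16 and Angptl4 had no entry, so no promoter of theirs was searched for any motif. A match is a run of letters and was not tested as a binding site, and letters outside these windows were not searched.

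Of the day 3 libraries, 3 stood apart from the other 21, namely vehicle replicates 2 and 3 and aCD40 replicate 1. They had 283 to 343 CPM of Egfr, the gene introduced as variant III into the tumour line, against 13.1 to 50.8 CPM in the other 21. Their mean log2 CPM over 8 neuron genes was 7.81 to 8.57, against 8.77 to 10.01 in the other 21, and over the cell cycle list it was 6.66 to 6.97, against 0.30 to 3.75. Fold changes of the members in comparisons that hold these libraries are given with and without them. Without them vehicle at day 3 is 1 tumour, which the fit takes to vary as the other groups do.

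**Figure D1:**
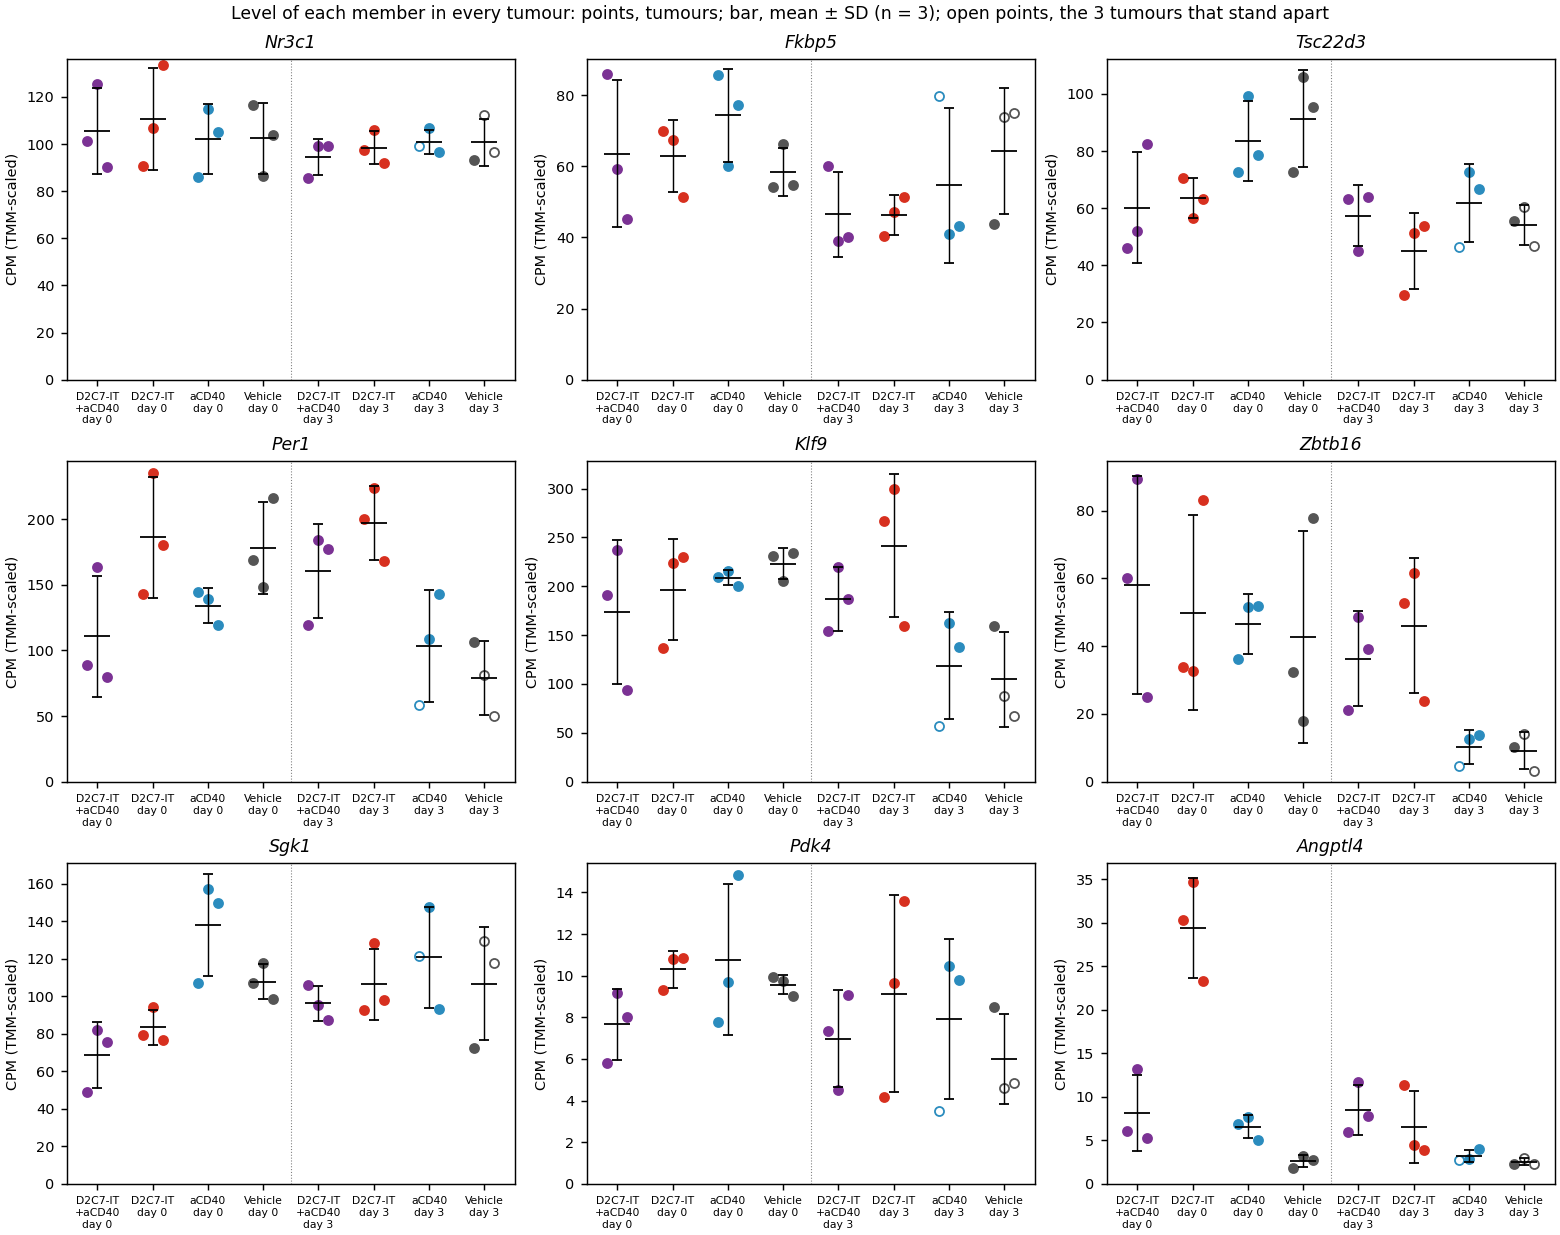
Level of each of the 9 genes in every tumour (TMM-scaled CPM, linear axes from 0), with the mean and SD of 3 tumours as bars and the 3 libraries that stand apart as open points. Angptl4 was at 23.3 to 34.7 CPM in D2C7-IT tumours at day 0 and at or below 13.2 CPM elsewhere, Zbtb16 was at 3.16 to 13.9 CPM in the aCD40 and vehicle tumours of day 3, and Nr3c1 was within 85.7 to 133.7 CPM throughout.

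Nr3c1 (ENSMUSG00000024431; GRCm38 chromosome 18, 39410545 to 39519421, minus strand), the receptor gene, was among the steadiest genes of the series. Its 24 values ran from 85.7 to 133.7 CPM, and its group means from 94.5 to 110.5 CPM, a 1.17-fold range. At day 0 it had 101, 125 and 90.0 CPM in D2C7-IT+aCD40 tumours, 90.8, 106.9 and 133.7 CPM in D2C7-IT tumours, 85.9, 115 and 105 CPM in aCD40 tumours, and 116.7, 86.5 and 103.9 CPM in vehicle tumours. At day 3 it had 85.7, 99.0 and 99.0 CPM in D2C7-IT+aCD40 tumours, 97.6, 106 and 91.9 CPM in D2C7-IT tumours, 99.2, 107 and 96.7 CPM in aCD40 tumours, and 93.3, 112 and 96.8 CPM in vehicle tumours. Every pair of groups next to each other in level overlapped, and the 3 libraries that stood apart lay among the others. The SD of its log2 CPM over the 24 tumours was 0.17, where the median gene had 0.52 and 8.65% of genes had a smaller one. At day 3 its log2 fold change was -0.09 ± 0.16 (SE) in D2C7-IT+aCD40 against vehicle tumours (edgeR adjusted p = 0.73) and -0.03 ± 0.16 in D2C7-IT against vehicle tumours (edgeR adjusted p = 0.904). With those 3 left out the values were 0.05 and 0.09 (edgeR adjusted p = 0.973 and 0.932).

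Angptl4 (ENSMUSG00000002289; chromosome 17, 33773750 to 33781830, minus strand) had the widest range of the 9 after Zbtb16, with its highest tumour 19.0-fold above its lowest. At day 0 it had 30.3, 34.7 and 23.3 CPM in D2C7-IT tumours, against 1.82, 3.17 and 2.69 CPM in vehicle tumours. These are the values by which it was chosen: a log2 fold change of 3.52 ± 0.44 (SE), given with no test. In the same comparison 0.0808% of all genes passed an adjusted p of 0.05, from which nothing is read here. The other treated groups of day 0 lay between, at 6.08, 13.2 and 5.26 CPM in D2C7-IT+aCD40 tumours and 6.89, 7.67 and 5.06 CPM in aCD40 tumours. All 3 D2C7-IT tumours were above every other tumour of the series, and all 6 tumours of the other treated groups were above the 3 vehicle tumours. D2C7-IT+aCD40 was 1.85 lower on the log2 scale than D2C7-IT alone, a value that rests on the chosen group and has no test. Against aCD40 alone, which the choice did not use, the log2 fold change of D2C7-IT+aCD40 was 0.32 ± 0.40 (edgeR adjusted p = 1.0), and the groups overlapped. In whole tumours more cells of a type that makes a transcript cannot be told apart from more transcript per cell.

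At day 3 Angptl4 was higher in both groups that had received D2C7-IT than in vehicle tumours. It had 5.94, 11.7 and 7.80 CPM in D2C7-IT+aCD40 tumours, 11.3, 4.50 and 3.83 CPM in D2C7-IT tumours, 2.70, 2.87 and 3.96 CPM in aCD40 tumours, and 2.31, 2.96 and 2.31 CPM in vehicle tumours. All 6 tumours given D2C7-IT were above the 3 vehicle tumours, and replicate 1 stood above the others within D2C7-IT. D2C7-IT+aCD40 against vehicle gave a log2 fold change of 1.74 ± 0.41 (edgeR adjusted p = 0.104; DESeq2 adjusted p = 0.0041), and 1.91 (edgeR adjusted p = 0.708) without the 3 libraries. D2C7-IT against vehicle gave 1.37 ± 0.41 (edgeR adjusted p = 0.0804; DESeq2 adjusted p = 0.0189). The value was 1.52 (edgeR adjusted p = 0.804) without the 3 libraries, and leaving out 1 tumour at a time moved it between 0.72 and 1.65. D2C7-IT+aCD40 against aCD40 gave 1.41 ± 0.41 (edgeR adjusted p = 0.272; DESeq2 adjusted p = 0.057), with no overlap, and 1.31 (edgeR adjusted p = 0.529) without the 3 libraries. The gene thus missed the adjusted threshold of edgeR in all 3 of these comparisons and passed that of DESeq2 in the 2 against vehicle.

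Between the days Angptl4 was compared within each treatment. In D2C7-IT+aCD40 tumours day 3 against day 0 gave a log2 fold change of 0.05 ± 0.40 (edgeR adjusted p = 1.0). In D2C7-IT tumours it was -2.17, with no test because day 0 was the chosen group. In aCD40 tumours it was -1.04 ± 0.40 (edgeR adjusted p = 0.424; DESeq2 adjusted p = 0.257), and all 3 tumours of day 3 were below all 3 of day 0. It was -0.93 (edgeR adjusted p = 1.0) without the 3 libraries. The difference of the D2C7-IT+aCD40 and aCD40 changes over days was 1.09 ± 0.57 (edgeR adjusted p = 1.0), which missed the threshold, and 1.00 (edgeR adjusted p = 1.0) without the 3 libraries.

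The genes most like Angptl4 over the 21 tumours, among 14490 genes ranked, were Ier3 (Pearson r = 0.927), an early response gene, Lrg1 (r = 0.926), a secreted glycoprotein of the acute phase and of neutrophil granules, and Ctps (r = 0.913), an enzyme of CTP synthesis. Ier3 had 43.1, 53.3 and 54.9 CPM in D2C7-IT tumours at day 0, against 10.5, 9.55 and 11.3 CPM in vehicle tumours at day 0. At day 3 its highest tumour, at 45.8 CPM, was D2C7-IT replicate 1, which also held the highest Angptl4 of that group. Over all 24 tumours r was 0.933 for Ier3, 0.783 for Lrg1 and 0.641 for Ctps. The 3 libraries that stood apart had higher Lrg1 and Ctps at their Angptl4 levels than the rest. The mean of 25 other listed glucocorticoid-induced genes had an r with Angptl4 of 0.781 over the 21 tumours and 0.723 over 24. A list of neutrophil genes, of which 6 of 8 passed the filter on low counts, moved with Angptl4 as well (r = 0.878 over 21 tumours and 0.787 over 24). Its mean log2 CPM was 1.28 to 1.47 in D2C7-IT tumours at day 0, -0.49 to 0.79 in D2C7-IT+aCD40 tumours, -0.52 to 0.39 in aCD40 tumours and -1.31 to -0.90 in vehicle tumours at day 0. The summed level of the 6 genes that passed the filter was 40.8 to 45.0 CPM in D2C7-IT tumours at day 0, 17.5 to 32.7 CPM in D2C7-IT+aCD40 tumours, 18.1 to 40.3 CPM in aCD40 tumours and 13.3 to 33.6 CPM in vehicle tumours. Of its defining genes, S100a8 and S100a9 had as few as 2 and 1 reads in a library. The chemokine receptor gene Cxcr2 was at 0 in 3 libraries, Retnlg in 3, Camp in 2 and Ly6g in 16. Csf3r (256 to 1657 reads per library) and Mmp9 (33 to 1122) reached the highest counts of the 8, and both enter the summed level. The part of neutrophils in the level of Angptl4 was not tested. These likenesses are over the same libraries and groups from which Angptl4 was chosen, so the day 0 D2C7-IT tumours carry much of them. Taken as deviations from group means over the 24 tumours, r with Angptl4 was 0.842 for Ier3, 0.506 for Lrg1 and 0.485 for Ctps. It was 0.208 for the neutrophil list and 0.147 for the 25 glucocorticoid-induced genes.

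**Figure D2:**
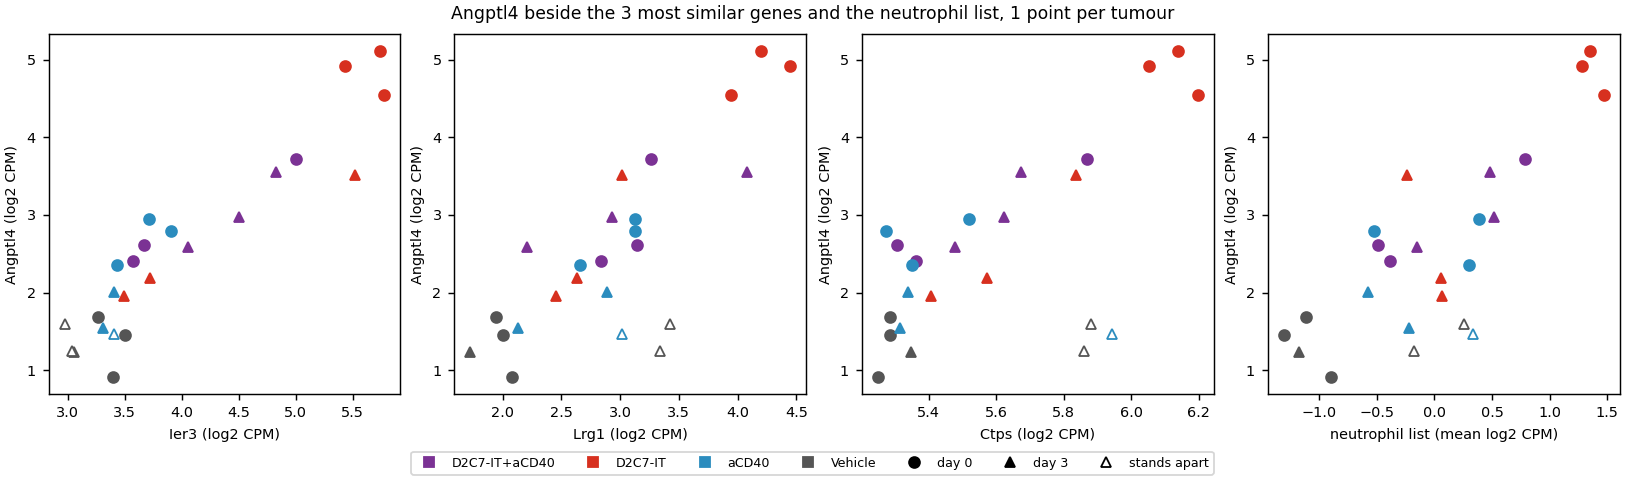
Angptl4 (log2 CPM, vertical axes) beside Ier3, Lrg1, Ctps (log2 CPM) and the mean log2 CPM of 6 neutrophil genes, 1 point per tumour, with colour for treatment, shape for day and open triangles for the 3 libraries that stand apart. The 3 D2C7-IT tumours of day 0 lie at the upper right of every panel, and the open triangles lie to the right of the other points at the same Angptl4 level for Lrg1 and Ctps.

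Zbtb16 (ENSMUSG00000066687; chromosome 9, 48654297 to 48836222, minus strand), a zinc finger transcription factor also known as PLZF, was low in the aCD40 and vehicle tumours of day 3. At day 3 it had 21.1, 48.6 and 39.2 CPM in D2C7-IT+aCD40 tumours, 52.9, 61.6 and 23.7 CPM in D2C7-IT tumours, 4.57, 12.6 and 13.8 CPM in aCD40 tumours, and 10.2, 13.9 and 3.16 CPM in vehicle tumours. The 6 aCD40 and vehicle tumours, at 3.16 to 13.9 CPM, were all below the other 18 tumours of the series, at 18.01 to 89.2 CPM. D2C7-IT+aCD40 against vehicle gave a log2 fold change of 1.99 ± 0.64 (edgeR adjusted p = 0.109; DESeq2 adjusted p = 0.0309). D2C7-IT against vehicle gave 2.34 ± 0.65 (edgeR adjusted p = 0.080; DESeq2 adjusted p = 0.0081), and D2C7-IT+aCD40 against aCD40 gave 1.81 ± 0.64 (edgeR adjusted p = 0.396; DESeq2 adjusted p = 0.134). Without the 3 libraries these were 1.86, 2.18 and 1.47 (edgeR adjusted p = 0.708, 0.804 and 0.653). The 3 aCD40 and vehicle tumours of day 3 that did not stand apart had a neuron list of 9.53 to 9.76, inside the range of the other 18 tumours, and Zbtb16 of 10.2, 12.6 and 13.8 CPM.

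At day 0 Zbtb16 varied widely within the D2C7-IT+aCD40, D2C7-IT and vehicle groups, and less within the aCD40 group. It had 60.0, 89.2 and 25.0 CPM in D2C7-IT+aCD40 tumours, 33.9, 32.7 and 83.0 CPM in D2C7-IT tumours, 36.3, 51.7 and 51.8 CPM in aCD40 tumours, and 32.5, 18.01 and 77.9 CPM in vehicle tumours, so all 4 groups overlapped. Day 3 against day 0 gave -2.17 ± 0.65 in aCD40 tumours (edgeR adjusted p = 0.416; DESeq2 adjusted p = 0.0695) and -2.23 ± 0.65 in vehicle tumours (edgeR adjusted p = 0.108; DESeq2 adjusted p = 0.022), each with no overlap. These were -1.81 (edgeR adjusted p = 0.991) and -2.07 (edgeR adjusted p = 1.0) without the 3 libraries. The same change was -0.68 ± 0.62 in D2C7-IT+aCD40 tumours (edgeR adjusted p = 1.0) and -0.12 ± 0.62 in D2C7-IT tumours (edgeR adjusted p = 1.0). The difference between the D2C7-IT+aCD40 and vehicle changes, tested directly, was 1.55 ± 0.88 (edgeR adjusted p = 0.555), which missed the threshold, and 1.42 (edgeR adjusted p = 0.984) without the 3 libraries. Over the 24 tumours its SD was larger than that of 93.0% of genes.

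Per1 (ENSMUSG00000020893; chromosome 11, 69095217 to 69109960, plus strand), a repressor in the circadian clock, was higher at day 3 in both groups given D2C7-IT than in vehicle. At day 3 it had 119.6, 184 and 178 CPM in D2C7-IT+aCD40 tumours, 200.0, 224 and 168 CPM in D2C7-IT tumours, 58.4, 109 and 143 CPM in aCD40 tumours, and 106, 81.2 and 49.9 CPM in vehicle tumours. All 6 tumours given D2C7-IT were above all 3 vehicle tumours, and the aCD40 tumours spanned the gap. D2C7-IT+aCD40 against vehicle gave a log2 fold change of 1.02 ± 0.33 (edgeR adjusted p = 0.11; DESeq2 adjusted p = 0.044). D2C7-IT against vehicle gave 1.32 ± 0.33 (edgeR adjusted p = 0.080; DESeq2 adjusted p = 0.0070). Without the 3 libraries they were 0.63 (edgeR adjusted p = 0.726) and 0.90 (edgeR adjusted p = 0.804). At day 0 the order was another: 88.7, 164 and 79.4 CPM in D2C7-IT+aCD40 tumours, 143, 235 and 180.3 CPM in D2C7-IT tumours, 144, 139 and 119 CPM in aCD40 tumours, and 169, 148 and 216 CPM in vehicle tumours. There the combination against D2C7-IT alone gave -0.75 ± 0.33 (edgeR adjusted p = 1.0) with overlap, and all 3 aCD40 tumours were below all 3 vehicle tumours (-0.41 ± 0.33, edgeR adjusted p = 1.0). Vehicle tumours at day 3 against day 0 gave -1.17 ± 0.33 (edgeR adjusted p = 0.108; DESeq2 adjusted p = 0.0239; -0.75 with an edgeR adjusted p = 1.0 without the 3 libraries). The difference between the D2C7-IT+aCD40 and vehicle changes over days was 1.71 ± 0.47 (edgeR adjusted p = 0.552; 1.31 with an edgeR adjusted p = 0.984 without the 3 libraries).

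Klf9 (ENSMUSG00000033863; chromosome 19, 23141226 to 23168134, plus strand), a Krüppel-like transcription factor abundant in neurons, was the most abundant of the 9 per length. Its mean over the 24 tumours was 37.8 CPM per kb of exon, followed by Per1 at 25.5, Sgk1 at 21.1, Tsc22d3 at 14.9 and Nr3c1 at 13.3 CPM per kb. Below them came Zbtb16 at 7.08, Fkbp5 at 6.22, Pdk4 at 2.43 and Angptl4 at 2.38 CPM per kb. At day 3 Klf9 had 154, 219.6 and 187 CPM in D2C7-IT+aCD40 tumours, 267, 299 and 159 CPM in D2C7-IT tumours, 57.1, 162 and 138 CPM in aCD40 tumours, and 159, 87.6 and 67.1 CPM in vehicle tumours. The lowest values were those of the 3 libraries that stood apart, and vehicle replicate 1 overlapped both groups given D2C7-IT. D2C7-IT+aCD40 against vehicle gave a log2 fold change of 0.84 ± 0.38 (edgeR adjusted p = 0.193; DESeq2 adjusted p = 0.151), and 0.26 (edgeR adjusted p = 0.897) without the 3 libraries. D2C7-IT against vehicle gave 1.21 ± 0.39 (edgeR adjusted p = 0.0851; DESeq2 adjusted p = 0.0277), and 0.62 (edgeR adjusted p = 0.804) without them.

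At day 0 Klf9 had 191, 237 and 93.4 CPM in D2C7-IT+aCD40 tumours, 137, 223 and 229.7 CPM in D2C7-IT tumours, 209.9, 216 and 201 CPM in aCD40 tumours, and 231, 205 and 234 CPM in vehicle tumours. The 4 groups overlapped, with 1 low tumour in each of the groups given D2C7-IT. Day 3 against day 0 gave -0.81 ± 0.38 in aCD40 tumours (edgeR adjusted p = 0.424) and -1.09 ± 0.39 in vehicle tumours (edgeR adjusted p = 0.108; DESeq2 adjusted p = 0.0488), each with no overlap. Without the 3 libraries those were -0.47 (edgeR adjusted p = 1.0) and -0.50 (edgeR adjusted p = 1.0). Klf9 followed the neuron list more closely than any other member did: r was 0.804 over the 21 tumours and 0.937 over all 24. For Per1 these were 0.419 and 0.776, and for Zbtb16 0.408 and 0.762. The part of neuron content in these levels was not tested.

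**Figure D3:**
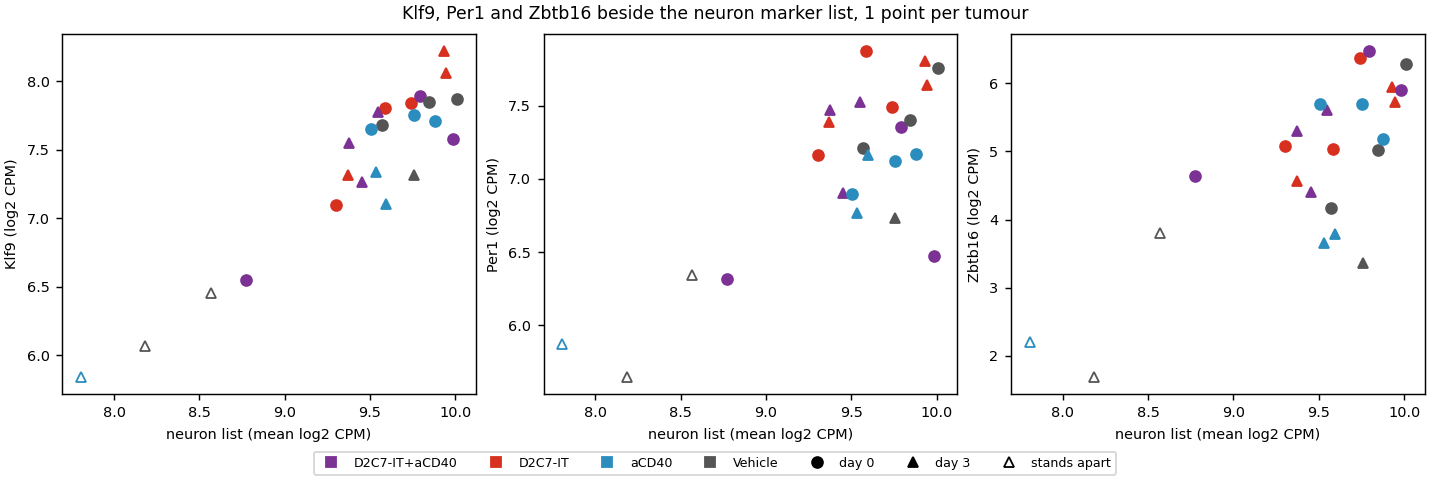
Klf9, Per1 and Zbtb16 (log2 CPM, vertical axes) beside the mean log2 CPM of 8 neuron genes, 1 point per tumour, with colour for treatment, shape for day and open triangles for the 3 libraries that stand apart. The open triangles lie at the lower left of each panel at a neuron list of 7.81 to 8.57, and 3 filled triangles of aCD40 and vehicle lie low in the Zbtb16 panel at a neuron list of 9.53 to 9.76.

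Sgk1 (ENSMUSG00000019970; chromosome 10, 21882184 to 21999903, plus strand), a kinase that acts on ion channels and transporters and the gene with the full response element printed above, was lowest at day 0 in tumours given the combination. At day 0 it had 48.8, 82.0 and 75.6 CPM in D2C7-IT+aCD40 tumours, 79.2, 94.2 and 76.8 CPM in D2C7-IT tumours, 107, 158 and 149.7 CPM in aCD40 tumours, and 107, 118 and 98.8 CPM in vehicle tumours. All 6 tumours given D2C7-IT were below all 6 of the aCD40 and vehicle groups. D2C7-IT+aCD40 against aCD40 gave a log2 fold change of -1.005 ± 0.23 (edgeR adjusted p = 1.0; DESeq2 adjusted p = 0.0694), and D2C7-IT+aCD40 against vehicle gave -0.65 ± 0.23 (edgeR adjusted p = 1.0; DESeq2 adjusted p = 0.725). For D2C7-IT against vehicle the value was -0.37, with no test. At day 3 the groups overlapped, with 106, 95.6 and 87.1 CPM in D2C7-IT+aCD40 tumours, 92.7, 128 and 98.1 CPM in D2C7-IT tumours, 122, 147.5 and 93.5 CPM in aCD40 tumours, and 72.7, 129.6 and 118 CPM in vehicle tumours. D2C7-IT+aCD40 tumours at day 3 were all above those of day 0, by 0.48 ± 0.23 (edgeR adjusted p = 1.0). Of the 3 libraries, the 2 of vehicle held its higher levels there, at 129.6 and 118 CPM, against 72.7 CPM in replicate 1. The value of D2C7-IT+aCD40 against vehicle at day 3 was 0.43 (edgeR adjusted p = 0.745) without the 3 libraries, against -0.15 ± 0.23 (edgeR adjusted p = 0.695) with them. D2C7-IT against vehicle was 0.56 (edgeR adjusted p = 0.804) without them, against -0.01 (edgeR adjusted p = 0.991) with them. For aCD40 against vehicle it was 0.75 (edgeR adjusted p = 1.0), against 0.18 (edgeR adjusted p = 0.998) with them.

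Tsc22d3 (ENSMUSG00000031431; chromosome X, 140539528 to 140600659, minus strand) encodes GILZ, an anti-inflammatory leucine zipper protein. At day 0 it had 46.2, 52.2 and 82.4 CPM in D2C7-IT+aCD40 tumours, 70.6, 56.6 and 63.1 CPM in D2C7-IT tumours, 72.8, 99.2 and 78.5 CPM in aCD40 tumours, and 72.8, 106 and 95.3 CPM in vehicle tumours. All 3 D2C7-IT tumours were below the vehicle tumours, a difference given with no test (-0.52), and the combination overlapped vehicle through its replicate 3 (-0.60 ± 0.25, edgeR adjusted p = 1.0). At day 3 it had 63.3, 45.0 and 64.0 CPM in D2C7-IT+aCD40 tumours, 29.7, 51.5 and 53.8 CPM in D2C7-IT tumours, 46.5, 72.5 and 66.7 CPM in aCD40 tumours, and 55.5, 60.5 and 46.6 CPM in vehicle tumours. The 4 groups of day 3 overlapped. In vehicle tumours all 3 values of day 3 were below those of day 0, with a log2 fold change of -0.75 ± 0.25 (edgeR adjusted p = 0.108; DESeq2 adjusted p = 0.0431) and -0.73 (edgeR adjusted p = 1.0) without the 3 libraries. Day 3 was also below day 0 with no overlap in D2C7-IT tumours (-0.50 ± 0.25, edgeR adjusted p = 1.0) and in aCD40 tumours (-0.43 ± 0.25, edgeR adjusted p = 0.443; -0.26 with an edgeR adjusted p = 1.0 without the 3 libraries), and overlapped it in D2C7-IT+aCD40 tumours (-0.07 ± 0.25, edgeR adjusted p = 1.0).

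Fkbp5 (ENSMUSG00000024222; chromosome 17, 28399094 to 28517527, minus strand), a co-chaperone that lowers the affinity of the receptor for its hormone and is widely read as a marker of its activity, had no unadjusted p under 0.05 in any comparison of all 24 tumours. At day 0 it had 86.0, 59.4 and 45.3 CPM in D2C7-IT+aCD40 tumours, 70.0, 67.4 and 51.5 CPM in D2C7-IT tumours, 85.8, 60.1 and 77.1 CPM in aCD40 tumours, and 54.3, 66.3 and 54.6 CPM in vehicle tumours. At day 3 it had 60.1, 39.1 and 40.1 CPM in D2C7-IT+aCD40 tumours, 40.4, 47.3 and 51.4 CPM in D2C7-IT tumours, 79.9, 41.0 and 43.3 CPM in aCD40 tumours, and 43.7, 73.9 and 75.1 CPM in vehicle tumours. The groups of each day overlapped, and the 3 libraries that stood apart held the highest values of day 3. Leaving them out turned D2C7-IT+aCD40 against vehicle at day 3 to 0.11 ± 0.30, against -0.47 ± 0.28 with them (edgeR adjusted p = 0.951 and 0.309), and D2C7-IT against vehicle to 0.10, against -0.47 with them (edgeR adjusted p = 0.946 and 0.272). It also moved aCD40 tumours at day 3 against day 0 to -0.81 ± 0.25 (edgeR adjusted p = 0.667), against -0.44 ± 0.28 (edgeR adjusted p = 0.467). Reads of Fkbp5 are uncertain, because annotated genes overlap it on both strands and the libraries do not mark strand.

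Pdk4 (ENSMUSG00000019577; chromosome 6, 5483351 to 5496309, minus strand), a kinase that slows the entry of pyruvate into mitochondrial oxidation, likewise had no unadjusted p under 0.05 in any comparison. At day 0 it had 5.78, 9.17 and 8.02 CPM in D2C7-IT+aCD40 tumours, 9.29, 10.8 and 10.8 CPM in D2C7-IT tumours, 7.79, 9.68 and 14.8 CPM in aCD40 tumours, and 9.91, 9.74 and 9.04 CPM in vehicle tumours. At day 3 it had 7.33, 4.49 and 9.09 CPM in D2C7-IT+aCD40 tumours, 4.16, 9.65 and 13.6 CPM in D2C7-IT tumours, 3.49, 10.5 and 9.77 CPM in aCD40 tumours, and 8.49, 4.62 and 4.86 CPM in vehicle tumours. All 3 vehicle tumours of day 3 were below those of day 0 (-0.68 ± 0.42, edgeR adjusted p = 0.264), and without the 3 libraries the value was -0.18 (edgeR adjusted p = 1.0). D2C7-IT+aCD40 against vehicle at day 3 was 0.22 (edgeR adjusted p = 0.755) with the 3 libraries and -0.26 (edgeR adjusted p = 0.915) without them. All 3 D2C7-IT+aCD40 tumours of day 0 were below the D2C7-IT tumours (-0.43 ± 0.42, edgeR adjusted p = 1.0).

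Counted over the members, treatment made no call at day 0. With edgeR, 0 of 8 tested members passed an adjusted p of 0.05 in aCD40 against vehicle (0.0% of all genes), 0 had an unadjusted p under 0.05 (1.36% of all genes), and DESeq2 called 0 (0.0808%). For D2C7-IT+aCD40 against vehicle edgeR called 0 of 8 (0.0%), 2 had an unadjusted p under 0.05, Tsc22d3 and Sgk1 (3.03% of all genes), and DESeq2 called 0 (0.121%). In D2C7-IT+aCD40 against aCD40 edgeR called 0 of 9 (0.0%), 1 had an unadjusted p under 0.05, Sgk1 (0.884%), and DESeq2 called 0 (0.0314%). D2C7-IT+aCD40 against D2C7-IT gave 0 of 8 by edgeR (0.0%), 1 at an unadjusted p under 0.05, Per1 (2.77%), and 0 by DESeq2 (0.0943%). In D2C7-IT against vehicle the groups did not overlap for 3 of 9 members (Angptl4 higher, Tsc22d3 and Sgk1 lower), where 17.6% of all genes did so, and nothing is read from that count. The groups also did not overlap for Per1 in aCD40 against vehicle (7.47% of all genes), for Sgk1 in D2C7-IT+aCD40 against vehicle (9.47%) and against aCD40 (4.58%), and for Pdk4 in D2C7-IT+aCD40 against D2C7-IT (14.6%). Angptl4 is left out of these counts, since all but the comparison with aCD40, where it overlapped, rest on tumours by which it was chosen. The spread in these tests is shared by all 8 groups, so p-values of day 0 also depend on the 3 libraries of day 3. Without them Per1 was -0.69 ± 0.26 in D2C7-IT+aCD40 against vehicle, where it was -0.69 ± 0.33 with them. Against D2C7-IT it was -0.76 ± 0.26, where it was -0.75 ± 0.33 with them.

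At day 3 the share of all genes at an unadjusted p under 0.05 was high in both comparisons of D2C7-IT groups with vehicle. D2C7-IT+aCD40 against vehicle gave 0 of 9 calls by edgeR (0.0404% of all genes), 4 at an unadjusted p under 0.05 (Per1, Klf9, Zbtb16 and Angptl4, all higher, where 24% of all genes passed in either direction and 7.09% were higher) and 3 by DESeq2 (Per1, Zbtb16 and Angptl4, 7.72%). D2C7-IT against vehicle gave 0 of 9 by edgeR (0.0%), the same 4 members at an unadjusted p under 0.05, all higher (28.2% of all genes in either direction, 9.96% higher), and those 4 by DESeq2 (12.9%). Per1, Zbtb16 and Angptl4 did not overlap vehicle in either comparison, against 15.5% of all genes for D2C7-IT+aCD40 and 13.2% for D2C7-IT. The median log2 fold change of the 9 was 0.22 for D2C7-IT+aCD40 and 0.61 for D2C7-IT, beside 0.01 and 0.02 over all genes. Without the 3 libraries the members at an unadjusted p under 0.05 were 1 of 9 for D2C7-IT+aCD40 (Angptl4, 6.97% of all genes) and 3 of 9 for D2C7-IT (Per1, Zbtb16 and Angptl4, 5.67%). The members' medians were then 0.26 and 0.56, beside 0.06 over all genes in both. D2C7-IT+aCD40 against aCD40 gave 0 of 9 by edgeR (0.0%), 2 at an unadjusted p under 0.05 (Zbtb16 and Angptl4, 11.1%; the same 2 without the 3 libraries, 7.2%) and 0 by DESeq2 (0.992%). D2C7-IT+aCD40 against D2C7-IT gave 0 of 9 by edgeR (0.0%), at an unadjusted p under 0.05 (2.44%) and by DESeq2 (0.0135%), and so did aCD40 against vehicle (0.0%, 1.91% and 0.153%), where 1 member, Sgk1, had an unadjusted p under 0.05 without the 3 libraries (2.58%). Zbtb16 and Angptl4 did not overlap between D2C7-IT+aCD40 and aCD40 (9.76% of all genes), and 0 members did so between D2C7-IT+aCD40 and D2C7-IT (11.6%) or between aCD40 and vehicle (2.71%). The 3 comparisons against vehicle share its 3 tumours.

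**Figure D4:**
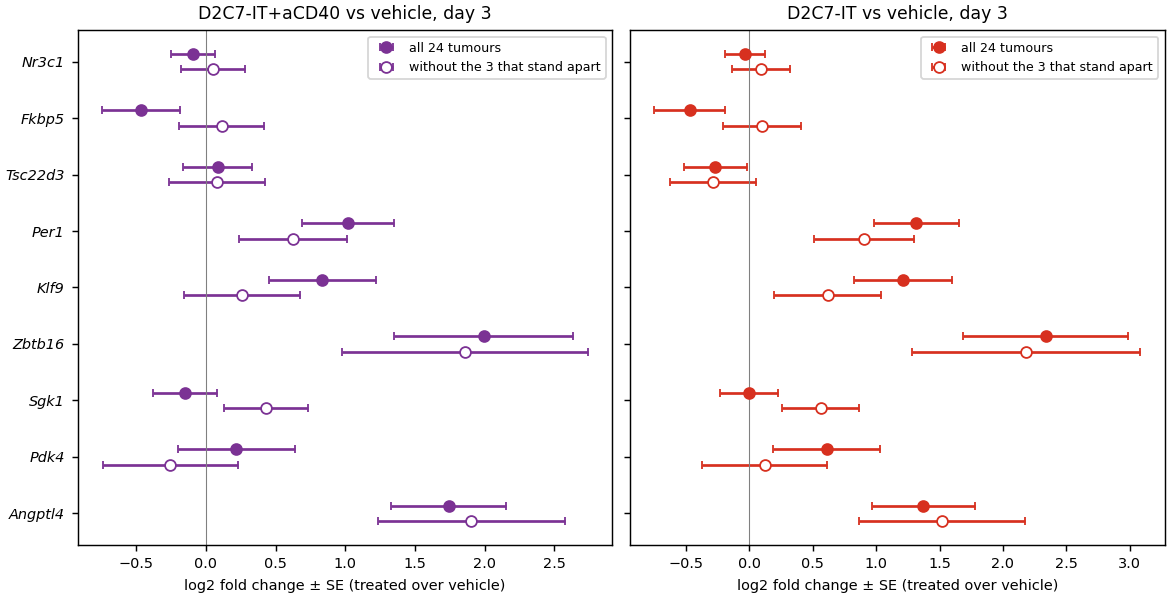
Log2 fold change ± SE of each gene at day 3 in D2C7-IT+aCD40 and in D2C7-IT over vehicle, from all 24 tumours (filled) and without the 3 libraries that stand apart (open). Zbtb16 and Angptl4 are at 1.37 or above in both, Per1 and Klf9 have smaller values without the 3 libraries, and Fkbp5, Sgk1 and Nr3c1 change sign in both. Pdk4 changes sign for D2C7-IT+aCD40.

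Between the days edgeR called 0 members in each treatment. Day 3 against day 0 gave, in D2C7-IT+aCD40 tumours, 0 of 9 calls by edgeR (0.0% of all genes), 1 member at an unadjusted p under 0.05 (Sgk1, higher, 4.66%) and 0 by DESeq2 (0.278%). In D2C7-IT tumours it gave 0 of 8 by edgeR (0.00449%), 0 at an unadjusted p under 0.05 (3.51%) and 0 by DESeq2 (0.121%). In aCD40 tumours it gave 0 of 9 by edgeR (0.0583%), 3 at an unadjusted p under 0.05 (Klf9, Zbtb16 and Angptl4, all lower, where 11.6% of all genes passed and 2.1% were lower) and 0 by DESeq2 (0.548%). In vehicle tumours it gave 0 of 8 by edgeR (0.0%), 4 at an unadjusted p under 0.05 (Tsc22d3, Per1, Klf9 and Zbtb16, all lower, where 30.2% of all genes passed and 8.15% were lower) and those 4 by DESeq2 (11%). The median log2 fold change of the 9 members was -0.44 in aCD40 and -0.68 in vehicle tumours, beside 0.05 and 0.01 over all genes. With or without the 3 libraries, the vehicle median includes Angptl4 (-0.02 with them), chosen in part by its vehicle level at day 0. It is therefore a description. Without the 3 libraries 2 of 9 had an unadjusted p under 0.05 in aCD40 tumours (Fkbp5 and Zbtb16, 3.96% of all genes) and 1 of 8 in vehicle tumours (Zbtb16, 1.65%). The members' medians were then -0.26 in aCD40 and -0.50 in vehicle tumours, beside 0.00 and -0.04 over all genes. Day 3 did not overlap day 0 for Sgk1 in D2C7-IT+aCD40 tumours (13.6% of all genes), for Fkbp5 and Tsc22d3 in D2C7-IT tumours (11.3%), for Tsc22d3, Klf9, Zbtb16 and Angptl4 in aCD40 tumours (10.9%), and for Tsc22d3, Per1, Klf9, Zbtb16 and Pdk4 in vehicle tumours (13.1%).

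**Figure D5:**
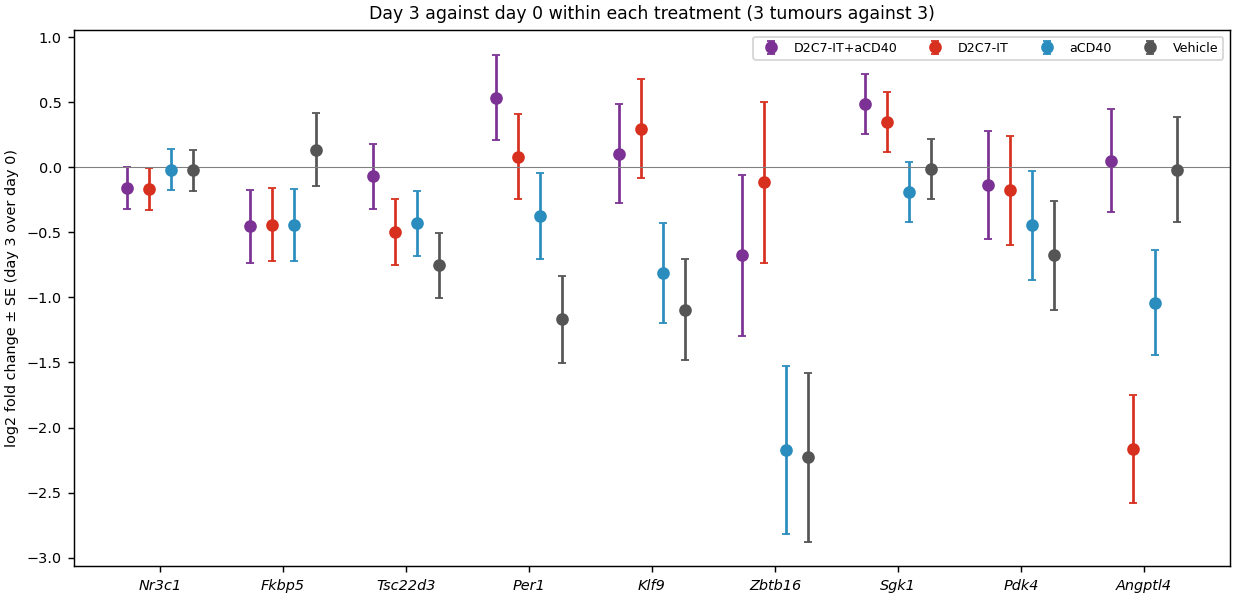
Log2 fold change ± SE of each gene at day 3 over day 0 within each treatment, 3 tumours against 3, with the 3 libraries that stand apart included. Zbtb16 lies at -2.17 in aCD40 and -2.23 in vehicle tumours, Per1 and Klf9 are lowest in vehicle tumours, and Nr3c1 lies between -0.17 and -0.02 in all 4 treatments.

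The members did not move as 1 block. Of 36 pairs, 5 had r above 0.5 over the 21 tumours: Per1 and Klf9 (0.718), Zbtb16 and Klf9 (0.625), Tsc22d3 and Pdk4 (0.574), Nr3c1 and Zbtb16 (0.566) and Nr3c1 and Klf9 (0.509). The median pair had r = 0.208. All pairs share the same libraries. The genes most similar to Per1 were Ier5l (0.891), Egr1 (0.856), an activity-induced transcription factor, and Midn (0.851), and over all 24 tumours Egr1 kept an r of 0.903 where Ier5l had 0.284 and Midn -0.061. To Klf9 they were Ankrd33b (0.927), Vipr1 (0.927), a neuropeptide receptor, and Ier5 (0.917), and to Zbtb16 Dclre1a (0.896), Ccdc186 (0.895) and Map4k3 (0.867). Over all 24 tumours Dclre1a had an r of -0.289 with Zbtb16. To Nr3c1 they were Sytl2 (0.862), Zeb2 (0.833) and Tbc1d5 (0.831), and to Tsc22d3 Fam20a (0.885), Paqr8 (0.873) and Ak3 (0.829). To Pdk4 they were Arsk (0.837), Nnt (0.804) and Psat1 (0.781), but over all 24 tumours their r with Pdk4 was -0.107, -0.44 and -0.197. A further listed glucocorticoid-induced gene was among the nearest of 2 members: Hif3a, second for Fkbp5 (0.783, after Gucy1a2 at 0.786 and before Prdm10 at 0.781), and Arrdc2, first for Sgk1 (0.829, before Rin2 at 0.704 and Mlph at 0.674). The likeness of Hif3a to Fkbp5 was 0.256 over all 24 tumours.

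Of 25 other glucocorticoid-induced genes, 1 passed the adjusted threshold of edgeR in any tested comparison. Plin4, which coats lipid droplets, fell in aCD40 tumours at day 3 to 1.59, 2.46 and 3.67 CPM, against 13.4, 20.7 and 26.7 CPM in aCD40 tumours at day 0 (log2 fold change -2.97 ± 0.48, edgeR adjusted p = 0.0404), and without the 3 libraries it was -2.72 with an edgeR adjusted p = 0.131. The call was also lost when only those 2 groups were fitted (edgeR adjusted p = 0.81) and when any 1 of the 6 tumours but replicate 3 of day 3 was left out (edgeR adjusted p of 0.0659 to 0.262). Hif3a, a hypoxia-inducible factor subunit, had 2.36, 1.52 and 1.57 CPM in vehicle tumours at day 3, against 7.57, 9.06 and 13.005 CPM in vehicle tumours at day 0 (-2.44 ± 0.52, edgeR adjusted p = 0.108; -2.07 with an edgeR adjusted p = 1.0 without the 3 libraries). In that comparison 5 of the 25 were higher and 7 lower at an unadjusted p under 0.05 (22% and 8.15% of all genes), and without the 3 libraries 0 were higher and 2 lower. In D2C7-IT against vehicle at day 3, edgeR called 0 of the 25 and DESeq2 9 (12.9% of all genes), and at an unadjusted p under 0.05 there were 9 higher and 3 lower (9.96% and 18.3% of all genes), with a median of 0.37 beside 0.02 over all genes. With the 3 libraries left out there were 4 higher and 0 lower, with a median of 0.61 beside 0.06. Cdkn1a, an inhibitor of the cell cycle that p53 also induces, had 266, 167 and 87.4 CPM in D2C7-IT tumours at day 3, against 27.6, 34.4 and 42.4 CPM in vehicle tumours (2.32 ± 0.47, edgeR adjusted p = 0.080; 2.66 with an edgeR adjusted p = 0.804 without the 3 libraries). Anxa1, an anti-inflammatory protein, followed the libraries that stood apart, with 242 to 307 CPM in them and at most 27.0 CPM elsewhere.

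Among 16 clock genes, the same comparison gave 0 calls by edgeR and 5 by DESeq2 (12.9% of all genes), with 8 higher and 0 lower at an unadjusted p under 0.05 (9.96% and 18.3% of all genes) and a median of 0.66. Leaving out the 3 libraries, 2 were higher and 0 lower, with a median of 0.23 beside 0.06 over all genes. Nr1d1, the repressor REV-ERB alpha, had 328, 337 and 172 CPM in D2C7-IT tumours at day 3, against 88.7, 58.7 and 46.3 CPM in vehicle tumours (2.11 ± 0.49, edgeR adjusted p = 0.080; 1.67 with an edgeR adjusted p = 0.804 without the 3 libraries). Per2, the partner of Per1, had 71.8, 76.8 and 53.2 CPM in D2C7-IT tumours, against 44.9, 17.6 and 19.5 CPM in vehicle tumours (1.30 ± 0.35, edgeR adjusted p = 0.080; 0.60 with an edgeR adjusted p = 0.804 without them). Over the 21 tumours r with the mean of this list was 0.812 for Per1, 0.696 for Klf9, 0.626 for Zbtb16 and 0.565 for Nr3c1. Over all 24 tumours it was 0.906, 0.902, 0.824 and 0.278 for the same genes. The part of the hour of collection, on which clock genes depend, was not tested.

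Of 16 genes for the receptors, steroid conversion, chaperones and coactivators, edgeR called 0 in D2C7-IT against vehicle at day 3 and DESeq2 2 (12.9% of all genes), with 2 higher and 4 lower at an unadjusted p under 0.05 (9.96% and 18.3% of all genes). With the 3 libraries left out 1 was higher (Hsd11b2) and 0 lower. Hsd11b2 encodes the enzyme that inactivates cortisol and corticosterone. It had 1.12, 1.85 and 0.69 CPM in D2C7-IT tumours at day 3, against 0.11, 0.47 and 0.21 CPM in vehicle tumours. Its log2 fold change was 2.19 ± 0.75 (edgeR adjusted p = 0.090), and 3.45 without the 3 libraries. Both rest on low counts, since Hsd11b2 had 2 to 111 reads per library. Of 21 PPAR genes edgeR called 0 and DESeq2 3 in that comparison, with 2 higher and 5 lower at an unadjusted p under 0.05, and 1 higher and 0 lower without the 3 libraries. Of 12 genes of lipoprotein lipase and the angiopoietin-like family, 11 were tested, edgeR and DESeq2 called 0, and 2 were lower at an unadjusted p under 0.05, Angptl2 and Lipc. With those 3 libraries left out 1 was lower, Angptl1. Among 14 genes induced by hypoxia, which is also known to induce Angptl4, Slc2a1, the glucose transporter GLUT1, rose in D2C7-IT+aCD40 tumours at day 3 with 165, 174 and 184 CPM, against 96.5, 84.1 and 72.2 CPM in vehicle tumours (1.05 ± 0.17, edgeR adjusted p = 0.0263), and it was the 1 gene of that list called there by edgeR. It was 0.88 (edgeR adjusted p = 0.708) and no longer called without the 3 libraries. The call was also lost when only those 2 groups were fitted (edgeR adjusted p = 0.365), and when vehicle replicate 2 or 3 or D2C7-IT+aCD40 replicate 2 or 3 was left out (edgeR adjusted p of 0.121 to 0.294). The median log2 fold change of the 14 in that comparison was 0.24 without the 3 libraries, beside 0.06 over all genes. Angptl4 had an r with the mean of this list of 0.288 over the 21 tumours and 0.194 over all 24. Taken as deviations from group means over the 24 tumours, that r was 0.383. The highest mean log2 CPM of this list in any tumour, 6.07, was in D2C7-IT replicate 1 of day 3. The part of hypoxia in the level of Angptl4 was not tested.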

How the data were processed

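The authors deposited raw, whole-number counts per Ensembl gene, not normalized, for 24 tumours in 6 tables of 36 columns, of which 12 repeat another column and 0 differ from it. Tools listed in the submitters' processing notes are STAR 2.5.2b, featureCounts (Subread 1.5.2), Trimmomatic 0.36 and bcl2fastq 2.17, with the build GRCm38. Per the labels, mRNA was enriched with oligo(dT) and the NEBNext Ultra kit was used, which does not mark strand. The setting for strand in counting is not given in these sources.

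Counts were analysed with edgeR 4.0.16 in R 4.3.3: filterByExpr (22280 genes kept), TMM scaling, and a robust quasi-likelihood F test with 1 mean per group over all 24 libraries (16 residual df, common BCV 0.41). Benjamini-Hochberg adjustment ran over all genes, with a threshold of 0.05. The SE of a log2 fold change was its size over the square root of F. DESeq2 1.42.0, other scalings, no filter, a replicate block and leaving out libraries were alternatives. The fit was checked on simulated counts. The p-values measure the spread between tumours the labels list as separate. Any 2 replicates differed by a chi-square of at least 28.6 per df, far above sampling noise, so no library was counted as a repeat.

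The members and the gene lists were chosen with earlier results of these data known. Named beside the members are the genes of each list called in a comparison and otherwise up to 4 of smallest p, and the 3 genes of highest Pearson r (log2 CPM, prior count 2, mean of at least 1 CPM) with each member over 21 tumours. Exon lengths are the union of exons in GENCODE M21, and promoters are from RefSeq (GRCm38.p6).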

Additional observations from a re-analysis of the deposited data

How the results depend on the processing

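The adjusted edgeR call count was 0 for the members in every tested comparison, and it stayed at 0 under RLE size factors, total counts, no filter on low counts, only the groups compared, and a replicate block. DESeq2 called 4 members in D2C7-IT against vehicle at day 3, 3 in D2C7-IT+aCD40 against vehicle at day 3 and 4 in vehicle at day 3 against day 0. Leaving out 1 tumour at a time, which was done with edgeR only, gave 0 to 4 edgeR calls in each of these comparisons. The 4 calls in each came without vehicle day 3 replicate 1, which leaves only the vehicle libraries that stand apart. The log2 fold change of Angptl4 in D2C7-IT against vehicle at day 0 was 3.32 to 3.71 when 1 tumour was left out. Of 319 further checks of the 24 single values at an unadjusted p under 0.05, 296 kept their direction and side of the adjusted threshold. A further 23 passed it where the reported value had not, and 0 turned round. None of the 24 had passed that threshold, so none could lose a call, and keeping its side meant staying uncalled. Whether the unadjusted p stayed under 0.05 was not counted in these checks. Outside these values, in D2C7-IT+aCD40 against vehicle at day 3, 4 members changed sign without the 3 libraries: Fkbp5 (0.11, against -0.47 with them), Sgk1 (0.43, against -0.15), Pdk4 (-0.26, against 0.22) and Nr3c1 (0.05, against -0.09). Leaving out the 3 libraries that stand apart, and the members at an unadjusted p under 0.05, were chosen after seeing the data.

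The replicate numbers did not pair tumours: in 0 of 14 comparisons was every pair's correlation over 0.1 (range -0.913 to 0.463), and 5 of 24 tumours correlated best with their own number. With the replicate block edgeR called 0 members in each comparison. With 3 tumours against 3 an exact permutation test cannot go below 0.1, so calls rest on the spread pooled over 8 groups. Angptl4, Pdk4 and Zbtb16 have the lowest counts.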
